A study of Triticum aestivum and Zea mays with 29 samples.

Results

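TS121 is 1 of the 6 wheat target sites at which LbCas12a base editors or the LbCas12a nuclease were measured in the protoplast tables used here. It was chosen by its name alone, as the D-subgenome site TS121-D in 5 tables (A-to-G editing in simplex, in multiplex and by the editor v9h, C-to-T editing, and indels), where it holds 13 of 58 rows of values. Its A, B and D amplicons, 3 of 18, were added from 4 library summaries. The series has 29 samples. Those behind the 5 tables are leaf cells of the wheat cultivar Fielder, taken 7 or 8 days after germination. They were stripped of their walls, transfected with plasmids and sorted by fluorescence. No condition is named for the 4 libraries behind the summaries. Editing was read by amplicon sequencing as percent of reads, and the tables list no read numbers beside the percents. Read pairs per index pair, which the study gives apart, were not used here, so the depth behind a single percent is unknown.

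Cas12a nucleases find DNA with a short crRNA and a T-rich motif, the PAM, that lies 5′ of the target. The bases next to the PAM form the seed, in which mismatches weaken binding most, and the nuclease cuts at the far end of the target, which leaves small insertions and deletions (indels). In a base editor the nuclease domain is disabled, here by D832A, and a fused deaminase acts on the strand that is displaced by the crRNA. Adenine base editors (ABEs) with a TadA deaminase turn A into a base read as G. Cytosine base editors (CBEs), here with the deaminase A3A and the inhibitor UGI, turn C into a base read as T.

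Bread wheat carries A, B and D copies of most genes. The spacer used for TS121 has 23 bases and matches the D copy. Positions are counted from 1 at the base next to the PAM. The PAM and target of each copy are shown first, with the positions that differ between the copies in capitals, because they set what the crRNA can pair with.
TS121-A: tttgtctGActaatattgctcgtcttt
TS121-B: tttgtctCActaatattgctcgtcttt
TS121-D: tttgtctCCctaatattgctcgtcttt
Against the spacer, the A copy carries C4G and C5A and the B copy C5A (the spacer's base, its position, the copy's base), so both differ within the seed. The same D target follows with its editable bases in capitals, first every adenine and then the cytosines for which values were tabulated.
TS121-D adenines: tttgtctccctAAtAttgctcgtcttt
TS121-D cytosines: tttgtctccCtaatattgCtCgtcttt
The spacer holds 3 adenines, A8, A9 and A11, all of them tabulated. Of its 7 cytosines 3 were tabulated, C6, C15 and C17, and C2, C4, C5 and C20 were not. The 3 copies lie in TraesCS4A02G123200, TraesCS4B02G181200 and TraesCS4D02G182700. None of these identifiers was matched in the reference gene table (0 of 3), so chromosome coordinates and the exon or intron are not given.

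The sequenced stretch of the D copy has 238 bases, with the target at bases 107 to 129. It is shown for context, with PAM and target in capitals.
TS121-D amplicon: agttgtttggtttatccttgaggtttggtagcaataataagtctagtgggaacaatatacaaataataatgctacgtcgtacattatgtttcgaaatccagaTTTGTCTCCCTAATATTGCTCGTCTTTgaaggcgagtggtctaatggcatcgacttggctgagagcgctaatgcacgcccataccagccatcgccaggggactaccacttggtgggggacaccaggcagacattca
Both ends match the primer pair listed for TS121, and the same pair matches the ends of the A and B amplicons, of 236 bases each.

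The crRNA was supplied in one of 2 systems. In system a, ribozymes (hammerhead and HDV) flank the crRNA in a transcript of RNA polymerase II and free it by cutting themselves off. In system h, the spacer lies between direct repeats behind a tRNA in a transcript of RNA polymerase III. The systems thus differ in promoter, flanks and repeats together, and a difference between them cannot be assigned to any of these. The cloning oligos of both systems hold the identical TS121 spacer. Nuclease arms paired wild-type LbCas12a or LbCas12a(D156R), a substitution known to raise Cas12a activity, with either system. The wheat nuclease table has no key of its own, so its arm numbers were taken to mean what they mean in the maize table of the same nucleases, where the control carries fluorescent reporters and no nuclease. CBE arms are named by the key in their table: CBE1 and CBE4 lack D156R, CBE2 and CBE5 carry D156R with an XTEN linker, and CBE3 and CBE6 carry D156R with a longer glycine-serine linker. The first of each pair uses system a and the second system h.

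Cutting at TS121-D was highest where D156R and system h were combined. With wild-type LbCas12a and system a, indels were found in 4.89, 1.59 and 8.72% of reads in replicates 1, 2 and 3. D156R with system a gave 30.1, 47.9 and 62.6%, and wild-type LbCas12a with system h gave 53.1, 43.3 and 51.6%. The combination reached 84.1, 86.4 and 94.0%, the highest values of the target, and these overlapped with no other arm. The D156R arm with system a had the widest spread, 46.9 ± 16.3% (mean ± SD, n = 3), against 88.2 ± 5.21% for D156R with system h.

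The control stood apart at this target. Its 3 replicates had 0.00984, 10.9 and 1.96% indels at TS121-D, whereas at TS60-A, TS105-B and TS112-A it ran from 0.0210 to 1.49%. Control replicate 2, the one with 10.9%, had 0.0279 to 0.180% at those other targets. Wild-type LbCas12a with system a, at 5.07 ± 3.57%, therefore overlapped with the control at 4.30 ± 5.82% (difference 0.770 points, exact permutation test, two-sided, p = 0.9, n = 3 each), and none of its replicates exceeded control replicate 2. Without that control replicate the difference was 4.08 points (exact permutation p = 0.3) and 2 of 3 replicates lay above the control, a comparison added after the value was seen. In the other 3 arms every replicate exceeded every control replicate at TS121-D (exact permutation p = 0.1 each, the smallest that 3 against 3 allows). Over 4 targets and 4 arms such separation was found in 93.8%, and wild-type LbCas12a with system a at TS121-D was the single exception.

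System h raised indels at TS121-D by 42.8 points over system a, averaged over both nucleases (exact permutation within each nuclease, two-sided, p = 0.005, adjusted p = 0.00667 over the 4 targets of the table). The difference was 44.3 points with wild-type LbCas12a, or 9.74-fold, and 41.3 points with D156R, or 1.88-fold. D156R raised indels by 40.3 points over the wild type, averaged over both systems (exact permutation within each system, p = 0.005, adjusted p = 0.0133). This was 41.8 points or 9.25-fold with system a, and 38.8 points or 1.79-fold with system h. For both contrasts 100% of the 4 targets were called higher, so the call itself is common to the table. With any 1 of the 3 replicates left out the exact permutation cannot go below p = 0.0556, so both calls end there by construction.

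The D156R effect at TS121-D, in points, was compared between the systems. Its value with system h minus that with system a was -2.96 points, made of 5.77, -3.17 and -11.5 points in replicates 1, 2 and 3, and without replicate 3 it was 1.30 points. At TS60-A, TS105-B and TS112-A the same quantity was -25.8, -6.38 and -41.5 points, negative in every replicate. These values carry no test.

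Relative to the mean of the other 3 targets, TS121-D changed place with the arm, and the order of the other targets changed too. TS60-A had the highest mean, 22.6%, with wild-type LbCas12a and system a. With D156R and system a TS112-A stood above it (62.8 against 58.7%). The gap to the other targets was computed for TS121-D alone. With wild-type LbCas12a and system h the gap of TS121-D was -15.5, -12.4 and -20.0 points in replicates 1, 2 and 3, and it ranked 4 of 4 each time. With D156R and system h it lay above them by 12.6, 10.5 and 13.0 points and ranked 1 of 4 each time. With system a it was lower in 3 of 3 replicates for the wild type (mean gap -6.91 points) and in 2 of 3 for D156R (mean gap -0.539 points). Over all 12 columns the gap averaged -2.85 points, which the exact sign-flip permutation test did not call (two-sided, p = 0.429). The test pools arms whose gaps had opposite signs, so it cannot show whether TS121-D differed from the other targets within an arm.

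C-to-T editing at TS121-D was low in all CBE versions. At C17 the 3 replicates had 0, 0 and 0% with CBE1, 0, 1.91 and 0.280% with CBE2 and 1.75, 0.650 and 0.210% with CBE3. With system h they had 0, 0.910 and 0% with CBE4, 2.55, 3.26 and 2.60% with CBE5 and 1.81, 0 and 0.230% with CBE6, and the control was listed at 0 in each replicate. CBE5 at C17 was the only arm and position above 2% in every replicate, and its lowest value exceeded every C17 value of the other versions.

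C6 was edited in few columns. It was above 0 in 6 of 18 columns, at 0.800% in 1 replicate of CBE1, 0.220% in 1 of CBE2, 1.04% in 1 of CBE3, 1.42% in 1 of CBE5, and 1.84 and 1.73% in replicates 1 and 3 of CBE6. The control was listed at 0 there. C15 was above 0 in 14 of 18 columns, but its control replicates had 0, 0.240 and 0.270%. Only 6 of the 18 C15 values exceeded the highest control value, the largest being 2.07% in CBE6 replicate 1, and the 3 replicates of CBE3 and of CBE4 (0.210 to 0.250%) lay within the range of the control.

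All 3 replicates of a version exceeded all 3 control replicates in 2 of the 18 pairs of version and cytosine at TS121-D, CBE3 and CBE5 at C17. Over all 10 cytosines of the table the share was 61.7%, with 20 of 24 pairs at TS13-B, 11 of 12 at TS60-A and 4 of 6 at TS112-A. For the mean over the 3 cytosines, the difference from the control was 1.22 points for CBE5, 0.423 for CBE3 and 0.387 for CBE2 (exact permutation, two-sided, p = 0.1 each, the smallest possible), with all 3 replicates above the control. It was 0.831 points for CBE6 (exact permutation p = 0.4), 0.123 for CBE4 (exact permutation p = 0.5) and 0.0700 for CBE1 (exact permutation p = 0.5).

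Over the 18 columns of all CBE versions pooled, no pair of positions was called different. The columns are not replicates of a single condition, so the tests do not rank positions within a version. C17 had the highest mean with CBE2, CBE3, CBE4 and CBE5, and C6 with CBE1 and CBE6 (0.267 and 1.19%). With CBE5, C17 was highest in every replicate (mean 2.80%, against 0.473% at C6 and 0.557% at C15). C17 averaged 0.898% over the 18 columns, C15 0.408% and C6 0.392%. C17 exceeded C6 by 0.506 points and C15 by 0.489 points (exact sign-flip permutation tests, two-sided, 18 columns, adjusted p = 0.0981 for both over the 3 pairs), being higher than C6 in 9 columns and lower in 4. C15 and C6 differed by 0.0167 points (exact sign-flip permutation, adjusted p = 0.905), and without replicate 2 that difference was -0.132 points.

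The versions with D156R, CBE2, CBE3, CBE5 and CBE6, exceeded CBE1 and CBE4 at TS121-D by 0.619 points for the mean over cytosines (exact permutation within each crRNA system, two-sided, p = 0.0364, adjusted p = 0.0364 over 4 targets, of which 100% were called). CBE3 and CBE6 also carry the longer linker, so this contrast is between architectures and cannot be assigned to D156R alone. At single cytosines the difference was 1.12 points at C17 (exact permutation, adjusted p = 0.0439 over 10 cytosines, of which 80.0% were called higher), 0.388 points at C6 (adjusted p = 0.281) and 0.350 points at C15 (adjusted p = 0.276). Without replicate 1 the differences at C6 and C15 were 0.194 and 0.230 points. Of the 3 TS121-D cytosines only C17 was called, and all 7 cytosines of the other targets were. Neither call held when versions were exchanged within a replicate number (exact permutation, adjusted p = 0.0700 for the mean and 0.0772 for C17), nor when any of the 3 replicates was left out (adjusted p = 0.0711 to 0.253 for the mean).

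System h against system a was not called at TS121-D with CBEs. The mean over cytosines was 0.432 points higher with system h (exact permutation within each architecture, two-sided, p = 0.122, adjusted p = 0.162 over 4 targets, of which 50.0% were called higher). The C15 difference was 0.0333 points without replicate 1. With all replicates the differences at C17, C6 and C15 were 0.729, 0.326 and 0.241 points (exact permutation, adjusted p = 0.150, 0.460 and 0.460 over 10 cytosines, of which 50.0% were called higher).

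TS121-D had less C-to-T editing than the mean of the other CBE targets in 18 of 18 columns, by 4.03 points on average (0.566% against 4.59%). The exact sign-flip permutation test gave p = 7.63e-06 (two-sided), the smallest this design can give. It pools the columns of all CBE versions, which are not replicates of a single condition, so this p rests on the shared sign over columns. The mean gap ran from -1.04 points with CBE1 to -6.26 points with CBE6. TS121-D was below TS13-B and below TS60-A in 18 of 18 columns, but below TS112-A in only 10 of 18. The tabulated cytosines differ between targets, with C8 at TS13-B and TS60-A, C16 alone at TS112-A and neither at TS121-D. At the shared positions C6, C15 and C17, CBE5 gave means of 20.8, 4.85 and 3.34% at TS13-B. At TS121-D the means were 0.473, 0.557 and 2.80%. TS112-A was listed at 0 in all replicates of CBE1 and CBE4, the versions without D156R. There TS121-D had 0.127 ± 0.134% and 0.180 ± 0.173% (mean ± SD over the cytosines, n = 3). The TS121-D control had 0.0567 ± 0.0493%, and CBE1 and CBE4 exceeded it by 0.0700 and 0.123 points (exact permutation, two-sided, p = 0.5 each).

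A-to-G editing at TS121-D was read in 3 tables. With v9h, TadA8e fused to LbCas12a(D156R-D832A) with system h, delivered with crRNAs for 6 targets, A11 had 1.46, 0 and 1.43% in the 3 replicates. A8 and A9 were listed at 0 in all of them, and the control, which has 1 replicate, at 0 throughout. The simplex and multiplex tables number their 7 arms without a key, so no arm is named or compared, and only the columns are described.

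In the simplex table A11 was above 0 in 8 of 21 columns. Arm 3 had 1.68% in replicate 3, arm 4 had 1.98 and 1.04% in replicates 1 and 3, arm 5 had 0.460, 0.780 and 5.87%, and arm 6 had 5.18, 0 and 2.18%. A8 was above 0 in 3 columns, at 3.36% in arm 5 replicate 3 and at 5.50 and 2.18% in arm 6 replicates 1 and 3. A9 was above 0 in the same 3 columns, at 1.36, 4.40 and 2.18%. Arms 1, 2 and 7 were listed at 0 at every adenine of TS121-D. Wherever A8 or A9 was edited A11 was too, and in 5 columns A11 was edited alone.

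In the multiplex table A11 was above 0 in 6 of 21 columns, at 2.97% in arm 4 replicate 2, at 3.80 and 0.590% in arm 5 replicates 1 and 3, and at 4.55, 2.66 and 3.18% in arm 6. A8 was above 0 in 5 columns, with 0.370% in arm 3, 0.270 and 1.98% in arm 5, and 3.60 and 2.08% in arm 6. A9 was above 0 in 3, with 0.270% in arm 5 and 4.63 and 3.18% in arm 6. One column, arm 3 replicate 3, had A8 without A11. A11 exceeded A8 in 5 columns and was lower in 2, against 6 and 1 in the simplex table, and A9 exceeded A11 in 1 multiplex column and in 0 simplex columns. These counts describe the columns and were not tested.

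Replicates of one arm at TS121-D often split between 0 and a clear value. Among pairs of adenine and arm that reached over 1% in some replicate, another replicate was listed at 0 in 7 of 8 pairs in simplex and 5 of 6 in multiplex. At the other targets this held for 1 of 15 and 1 of 14 pairs. In simplex, TS105-B lacked replicate 3 and gave 4 of those 15 pairs, which had less room for a 0. The pairs are not separate events, since a column at 0 at several positions counts once for each. With CBEs a replicate at 0 was found in 7 of 10 such pairs at TS121-D and in 0 of 37 elsewhere. The split can run through a whole column: in CBE6 replicate 2 all 3 TS121-D cytosines were listed at 0, while C8 of TS13-B stood at 22.0% and C8 of TS60-A at 7.73%. The smallest value above 0 in the simplex, multiplex, CBE and v9h tables was 0.210, 0.200, 0.210 and 0.240%, so a listed 0 does not exclude lower editing.

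Cutting and base editing at TS121-D stand beside the values of TS60-A and TS112-A, the other targets that all of these tables share. Indels with D156R and system h were 88.2 ± 5.21% at TS121-D, 82.2 ± 8.17% at TS112-A and 76.4 ± 5.66% at TS60-A (mean ± SD, n = 3), and the replicates of TS121-D and TS112-A overlapped. In the other 3 nuclease arms TS121-D had the lowest mean of the shared targets, but its replicates overlapped with those of TS60-A, TS112-A or both. It was 46.9% with D156R and system a, against 58.7% at TS60-A and 62.8% at TS112-A. It was 49.3% with wild-type LbCas12a and system h, against 66.0 and 67.1%, and 5.07% with system a, against 22.6 and 6.12%.

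For base editing the most edited position of each target was taken anew in each replicate, so it could differ between replicates. For CBEs this maximum ran over more cytosines at TS121-D than at TS60-A or TS112-A. The highest mean of a single TS121-D cytosine was 1.19% (C6) with CBE6 and 0.730% (C17) with CBE2. With CBE5, which also has D156R and system h, the most edited position had 2.80 ± 0.396% at TS121-D, 1.11 ± 0.364% at TS112-A and 7.03 ± 0.725% at TS60-A. TS121-D had the lowest mean of the shared targets with CBE6 (1.27 ± 1.11%, against 2.85 ± 0.508% at TS112-A and 7.06 ± 1.43% at TS60-A). It was also lowest with CBE2 (0.833%, against 1.34 and 6.35%) and with CBE3 (0.870%, against 2.85 and 7.06%). With CBE2 the replicates of TS121-D (0.280 to 1.91%) overlapped with those of TS112-A (1.31 to 1.39%), and with CBE3 and CBE6 there was no overlap. With v9h the most edited adenine had 0.963 ± 0.834% at TS121-D, 3.88 ± 0.472% at TS112-A and 1.33 ± 0.513% at TS60-A, and the replicates of TS121-D (0 to 1.46%) and TS60-A (0.760 to 1.76%) overlapped. TS121-D thus had the highest mean of the shared targets in 1 of 4 nuclease arms, and the lowest in the other 3, in 3 of 6 CBE versions and with v9h. These are ranks of means. Replicates overlapped with those of another shared target in every nuclease arm, with CBE2 and with v9h. The experiments were separate and co-delivered different crRNAs, and the base editing percents count a single position per replicate. The levels therefore stand side by side with no test between them.

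The 4 library summaries count reads of all 3 TS121 amplicons. The labels name no condition for these libraries, and they are described singly. The D amplicon carries number 2 of the set, and numbers 1 and 3 were taken as A and B from the order of the study's target list, which fits the subgenome in each of the 4 amplicons for which the nuclease table states one. In libraries 1, 2, 3 and 4 the D amplicon had 177326, 150593, 270967 and 125914 reads, or 12.1, 10.2, 17.5 and 10.98% of the TS121 reads. The A amplicon had 44.5 to 49.2% and the B amplicon 38.0 to 40.8%, so the D copy had the fewest reads of the 3 in every library.

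Reads marked as modified made up 5.72, 4.51, 4.11 and 4.24% of D reads in libraries 1 to 4, nearly all of them by substitutions (5.71, 4.50, 4.09 and 4.20%). The Wilson 95% intervals of the modified share were 5.61 to 5.83%, 4.41 to 4.62%, 4.04 to 4.19% and 4.13 to 4.36%, and they cover counting error only, since reads of PCR products are not independent molecules. The A copy had 4.09, 4.00, 4.32 and 3.95% and the B copy 4.01, 3.80, 4.17 and 3.82%. The D share was above both in libraries 1, 2 and 4, and in library 3 it was below both, with intervals of D and B (4.12 to 4.23%) that overlapped.

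Deletions were rare, and more frequent in the D copy than in the A and B copies. They were counted in 16, 14, 49 and 54 D reads, or 0.00902, 0.00930, 0.0181 and 0.0429%, with intervals of 0.00555 to 0.0147%, 0.00554 to 0.0156%, 0.0137 to 0.0239% and 0.0329 to 0.0559%. In the A copy they made up 0.00127 to 0.00261% and in the B copy 0.00139 to 0.00283%, and the intervals of D overlapped with neither in any library. Over all 18 amplicons the median share of deletions was 0.0215, 0.0222, 0.0312 and 0.0285% in libraries 1 to 4. The D copy lay below this median in libraries 1, 2 and 3 and above it in library 4. Insertions were counted in 0, 2, 2 and 0 D reads. With a limit of 3 counts for a count of 0, which is not a Wilson limit, the share could reach 0.00169% in library 1 and 0.00238% in library 4.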

How the data were processed

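Amplicon reads of wheat were processed by the authors with CRISPResso2, and no read was aligned again. The deposited percent values are shares of reads that carry an indel in a target or, at a single base, G for A or T for C. The library summaries that the authors deposited hold counts of reads per amplicon. In them modified plus unmodified reads equal the column headed total, which was used as denominator although the column headed aligned is larger, and 8 further columns of each summary were not used. The genome build is not given in the sources used here. Columns were assigned to replicates by the number in their names, and the study describes its replicates as biological.

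Arms were compared by exact permutation within strata and targets or positions by exact sign-flip permutation, all two-sided, with Benjamini-Hochberg adjustment over every target or cytosine of a table and a threshold of 0.05. Levels of a target are means over its tabulated positions, which differ between targets. The sign-flip tests pool the columns of all arms, which are not replicates of a single condition. The tests were tested on simulated data, drawn as independent normal values without the frequent zeros of the base editing percents. Alternatives were log2 of percent plus 0.1, the most edited position, the control subtracted, the median of the other targets, replicate blocks and leaving out each replicate. Other choices, leaving out control replicate 2 and the contrast of gaps in the closing section, were added after values were seen. Every tabulated TS121-D position and TS121 amplicon is described. The target and these lists were chosen with earlier results of these data known. Maize, T0 and T1 tables were not used, beyond the key of the maize nuclease table. Scripts ran in Python 3.11.15 (NumPy 2.4.6, SciPy 1.17.1).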

Additional observations from a re-analysis of the deposited data

Results flagged for a closer look

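With system h, TS121-D lay below the mean of the other nuclease targets in all 3 replicates of wild-type LbCas12a, by -16.0 ± 3.85 points (mean ± SD, n = 3), and above it in all 3 replicates of LbCas12a(D156R), by 12.0 ± 1.31 points. The opposite signs drew attention to it, and within system h the difference was not tested. This gap was computed for TS121-D alone, although the order of the other targets also changed between arms. Over both systems, a contrast chosen after the values were seen, the gap was 17.2 points higher with D156R (exact permutation within each system, two-sided, p = 0.03, n = 3 per arm). Against the median of the other targets it was 8.53 points (exact permutation p = 0.215), on the log2 scale 0.97 (exact permutation p = 0.005), and with a replicate block 17.2 points (exact permutation p = 0.0625). Wild-type LbCas12a with system h ranged from 43.3 to 53.1% at TS121-D, and D156R with system h from 84.1 to 94.0%.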

How the results depend on the processing

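Of 90 alternative tests 70 kept the direction and the side of the threshold, but part of these could not do otherwise. Subtracting the control mean leaves the nuclease contrasts unchanged, and exact permutation of a single nuclease arm against the control cannot go below p = 0.1. The count is therefore no measure of how stable the results are. With exact permutation tests, leaving out a replicate of the nuclease table gave 38.6 to 45.6 points for system h minus a (adjusted p = 0.0556 to 0.0741) and 36.4 to 46.5 for D156R minus wild type (adjusted p = 0.0556 to 0.111), where fewer replicates cannot pass the threshold. The D156R effect with system h minus that with system a ran from -7.33 to 1.30 points, and the gap contrast from 12.9 to 20.0. For CBEs with D156R minus those without, leaving out a replicate gave 0.446 to 0.774 points, and C15 minus C6 ran from -0.132 to 0.153 points. Same-numbered replicates did not deviate together in every pair of arms (5 of 6 nuclease pairs and 3 of 15 CBE pairs had r over 0.1). With the replicate block (exact permutation) the nuclease contrasts stayed at 42.8 points (adjusted p = 0.0313) and 40.3 points (adjusted p = 0.0417), and system h with CBEs at 0.432 points (adjusted p = 0.0521). With the same block (exact permutation) the CBE versions with D156R minus those without had 0.619 points (adjusted p = 0.0700) and the gap contrast 17.2 points (p = 0.0625). With the median of the other targets the gap contrast was 8.53 points. The most edited adenine put v9h at 0.963% in place of 0.321%. Counting deletions alone put the D amplicon at 0.00902, 0.00930, 0.0181 and 0.0429% in libraries 1 to 4, and insertions alone at 0, 0.00133, 0.000738 and 0%. The depth behind the percents is unknown, 3 replicates per arm cannot show p under 0.1 between single arms, and no value above 0 is under 0.200% in the base editing tables, where 0 is frequent.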

Other observations

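Several adenines of TS121-D were listed at the same percent in one column. In the simplex table A8, A9 and A11 all stood at 2.18% in arm 6 replicate 3. In the multiplex table A8 and A9 both stood at 0.270% in arm 5 replicate 1, and A9 and A11 both at 3.18% in arm 6 replicate 3.

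Among the 18 amplicons of each library summary, the D amplicon ranked 6, 12, 10 and 9 by share of modified reads and 14, 13, 12 and 8 by share of deletions in libraries 1 to 4, counting from the highest. The A and B amplicons ranked between 16 and 18 by share of deletions.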
